A study of Mus musculus with 6 samples.

Results

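DNA replication genes are described here in mesenchymal stem cells from mouse bone marrow that were induced towards bone. They are the 34 of 19353 genes in the deposited table whose KEGG pathway annotation holds the term DNA replication, and they were grouped by the complex that each protein belongs to. Wild-type primary cells, purified from bone marrow, received 100 nM dexamethasone, 50 µM ascorbic acid and 10 mM β-glycerophosphate in both groups. The MCH group (3 libraries) also received 0.5 µM melanin-concentrating hormone (MCH), a neuropeptide best known from the hypothalamus, and the Control group (3 libraries) did not. Day 9 stands in the sample titles and day 8 in the design text, and the age of the mice is not given in the sources used here. No source states separate mice or cultures for the 3 samples of each group, so the p-values cover the spread among these samples only, which may be technical.

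Before a cell divides, the origin recognition complex and its partners load the MCM2-7 ring on DNA, and the ring later unwinds the double helix as the core of the replicative helicase. DNA polymerase alpha with primase lays short primers, the clamp loader RFC places the sliding clamp PCNA on them, and polymerases epsilon and delta extend the leading and lagging strands. RPA coats the exposed single strand, and flap endonuclease 1, RNase H2 and DNA ligase 1 remove primers and join the lagging-strand pieces. Transcription of many of these genes is known to be controlled by E2F factors, which RB family proteins hold in check outside the cell cycle.

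Promoter sequences are shown because several members that rose hold a word of the E2F site. RefSeq promoter windows of GRCm38.p6, from 250 bases before to 50 bases after an annotated gene start, were found for 28 of the 34 members. They were searched on both strands for 4 words of the E2F site (TTTGGCGC, TTTCCCGC, TTTGCCGC and TTTCGCGC, which can overlap each other), for the CCAAT box (CCAAT), for the GC box (GGGCGG) and for TTTGAA, a core of the CHR element of cell cycle genes. At least 1 E2F word was present in 11 of the 28 members (39.3%), against 487 of 10246 tested genes with a promoter window (4.75%) and 2.26% of all windows. The 11 were Lig1, Mcm3, Mcm5, Mcm6, Mcm7, Pola1, Pold1, Pold3, Pole2, Pole4 and Rfc3. Of the 13 members past the threshold below that had a window, 8 held a word, and of the 15 others 3 did. This split was not tested, and several of the calls behind it depended on single libraries. CCAAT was present in 16 members (57.1%) against 43.2% of tested genes, GGGCGG in 19 (67.9%) against 68.6%, and TTTGAA in 4 (14.3%) against 14.4%. The set of E2F words was not the same in each gene: Mcm5 and Mcm6 hold TTTGGCGC and TTTCGCGC, and Lig1 holds TTTCGCGC alone. A word in a window is a description and shows no binding.

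The 250 bases before the RefSeq start are printed 5′ to 3′ on the strand of the gene for the 3 genes with the smallest p-values. E2F words and CCAAT boxes (or their reverse complements) are in capitals. In Mcm6 (chr1:128359706-128359955, minus strand), E2F words begin 110, 106 and 47 bases before the start. In Mcm5 (chr8:75109259-75109508, plus strand) they begin 153 and 149 bases before it, and the window of Pcna (chr2:132253181-132253430, minus strand) holds no E2F word and 1 CCAAT box. The start of Pcna in the deposited table, 132253314, lies inside this window, so part of the printed bases falls within the deposited gene. Lig1, next by p-value, holds none of these words before its most upstream start, and its E2F word lies 27 bases after another annotated start.
Mcm6: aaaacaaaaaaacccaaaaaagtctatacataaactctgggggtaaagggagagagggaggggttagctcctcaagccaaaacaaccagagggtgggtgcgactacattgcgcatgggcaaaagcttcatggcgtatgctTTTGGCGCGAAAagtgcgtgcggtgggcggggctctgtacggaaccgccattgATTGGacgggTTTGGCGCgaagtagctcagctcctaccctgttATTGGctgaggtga
Mcm5: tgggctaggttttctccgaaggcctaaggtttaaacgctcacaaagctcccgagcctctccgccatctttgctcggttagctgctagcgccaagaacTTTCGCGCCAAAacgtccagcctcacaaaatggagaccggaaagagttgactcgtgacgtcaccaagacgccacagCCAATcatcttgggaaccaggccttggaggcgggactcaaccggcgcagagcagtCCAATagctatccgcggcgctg
Pcna: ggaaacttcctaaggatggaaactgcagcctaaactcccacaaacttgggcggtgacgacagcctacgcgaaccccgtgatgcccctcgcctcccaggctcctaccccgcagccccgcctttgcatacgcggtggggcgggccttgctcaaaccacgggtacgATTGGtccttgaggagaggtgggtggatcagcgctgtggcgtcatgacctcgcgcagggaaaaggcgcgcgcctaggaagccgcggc

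With MCH, 14 of the 34 genes rose and none fell (adjusted p under 0.05 in the quasi-likelihood test of edgeR, with Benjamini-Hochberg adjustment over all genes). Over all 13662 genes tested, 497 (3.64%) rose and 738 (5.4%) fell. All 34 members passed the filter on low counts, and the lowest, the nuclease and helicase gene Dna2, had 39 to 63 counts per library. The log2 fold change was above 0 in 32 members, against 50.3% of all genes tested, and its median over the members was 0.31, against 0.00 over all genes. The changes were small: the largest, in Pole2, was 1.79-fold, and the 34 genes together took 2276, 2381 and 2346 CPM (counts per megaread of the TMM-scaled library) in the MCH libraries and 1863, 1808 and 1877 in Control. All 3 MCH libraries stood above all 3 Control libraries in 25 members, against 16.1% of genes tested, and below them in 1, against 16.6%. Before adjustment, 24 members were higher with p under 0.05, against 12.9% of genes tested, and 8 members had adjusted p between 0.05 and 0.1.

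**Figure D1:**
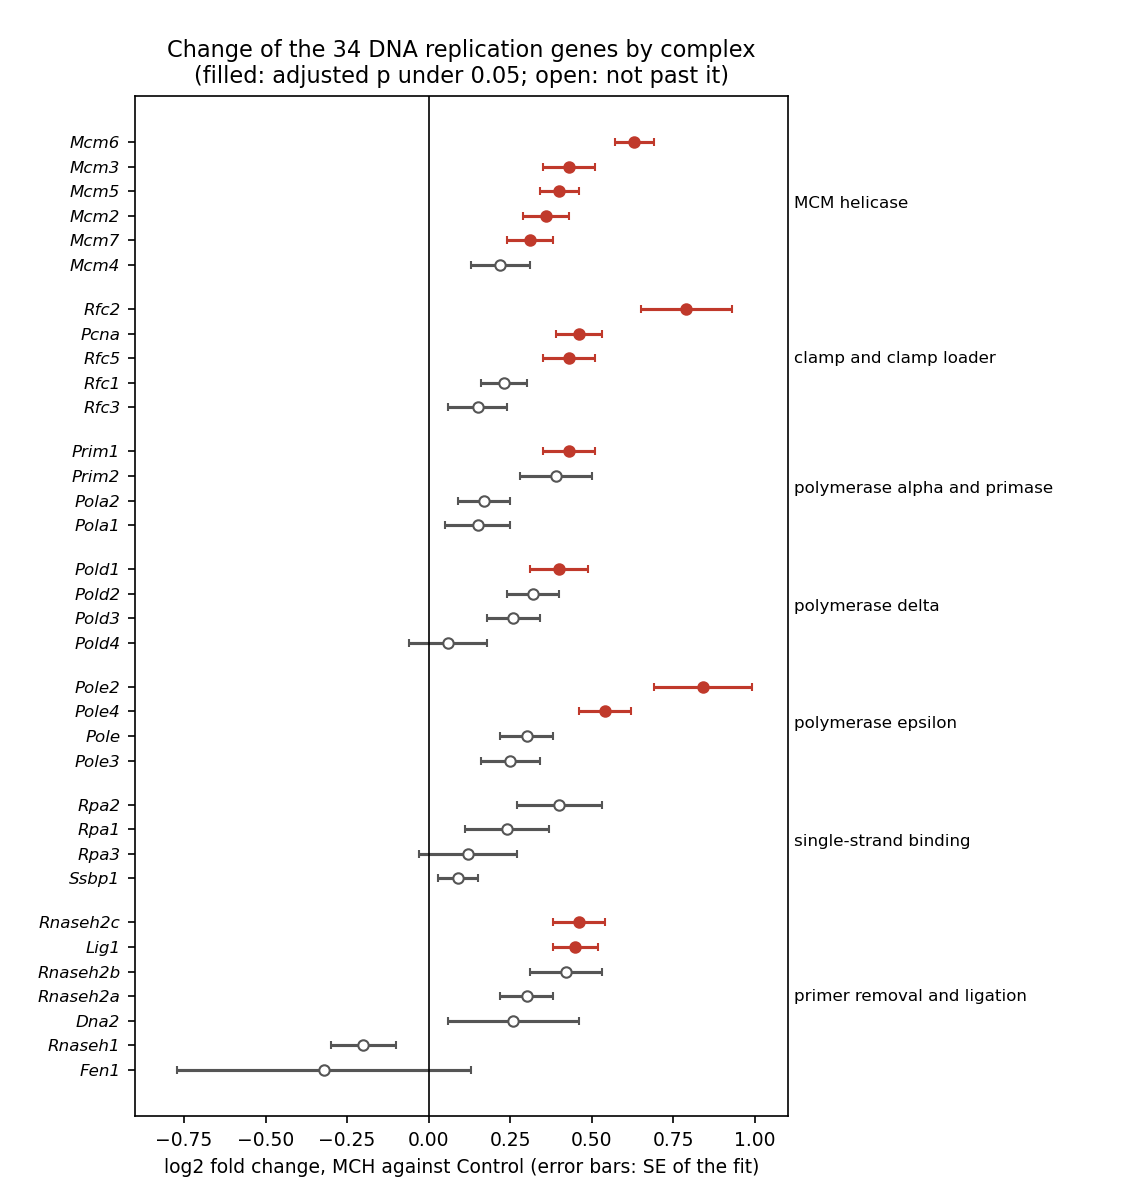
Log2 fold change of each DNA replication gene (horizontal axis, MCH against Control, with the SE of the fit), grouped by complex; filled points passed an adjusted p of 0.05. Of the 34 points, 32 lie above 0 and 14 are filled, from 0.31 in Mcm7 to 0.84 in Pole2, and Fen1 has the widest error.

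The count of 14 depended on single libraries. It was 6 without MCH replicate 3 (0.468% of all genes tested rose in that fit) and 6 without Control replicate 2 (0.795%). It was 9 without MCH replicate 2 (0.834%), 9 without Control replicate 3 (0.765%), 10 without Control replicate 1 (2.06%) and 18 without MCH replicate 1 (5.19%). Mcm6, Mcm5, Pcna, Pole4 and Lig1 were past the threshold in each of these 6 fits. With the replicate number as a block, only Mcm6 passed (0.205% of all genes tested rose in that fit). In the authors' deposited table, 4 members had a q-value under 0.05 (Mcm6, Rfc2, Pole2 and Pole4), against 2.7% of all genes, and none was among the 243 genes it marks as changed.

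Library totals ran from 16521980 to 18803949 counts, and on the first principal component MCH replicate 1 lay nearer to Control (-10.9) than MCH replicates 2 and 3 (-32.3 and -24.8, with Control at 18.9 to 25.5). Stromal markers ranged widely in level: Col1a2 had 69402 to 112929 counts per library, but Thy1 had 36 to 59 and Lepr 5 to 20. Of 12 stromal markers 6 fell with MCH and none rose, against 5.4% and 3.64% of all genes tested. The summed counts of the 12 were 167529 to 175081 with MCH and 215520 to 254915 in Control. The pan-leukocyte gene Ptprc had 0 to 2 counts. MCH replicate 3 stood apart in macrophage genes: it was the highest MCH library in all 12 monocyte and macrophage markers and the highest of all 6 libraries in 11. Its Lyz2 was at 10.2 CPM and its Ctss at 5.34, against 3.02 to 5.75 and 0.307 to 1.2 in the other 5 libraries, and Adgre1 had at most 50 counts. The T cell gene Cd3e rose (2.40 to 3.19 CPM in Control, 7.33 to 8.88 with MCH; 1.46 ± 0.17, adjusted p = 0.00346) and the monocyte gene Cd14 fell by 0.43 ± 0.06 (adjusted p = 0.00678). Cd14 was the 1 macrophage marker of 7 tested that passed: 5 of the 7 had a log2 fold change above 0 and the median was 0.47, with Cd68 at 0.47 ± 0.13 (adjusted p = 0.0655; groups apart). Summed counts of 7 leukocyte markers were 3706 to 4095 with MCH and 3149 to 3806 in Control, of 12 monocyte and macrophage markers 2449 to 3305 and 2924 to 3342, of 6 granulocyte markers 421 to 591 and 569 to 634, of 3 erythroid markers 23 to 45 and 23 to 26, and of 5 endothelial markers 65 to 103 and 82 to 127. Their part in the change of the replication genes was not tested. In bulk RNA, more cells in S phase and more RNA per cell cannot be told apart.

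All 6 subunits of the MCM helicase were higher with MCH in every library, and 5 of them passed the test. Mcm6 (chromosome 1, 128331590 to 128359664, minus strand, 16 merged exons, GRCm38) stood at 106, 105 and 105 CPM in the MCH libraries and at 68.5, 67.8 and 67.2 CPM in Control. The libraries of each group were nearly level, and the log2 fold change was 0.63 ± 0.06 (SE), with an adjusted p of 0.00103. Mcm5 stood at 159, 163 and 156 CPM with MCH and at 118, 119 and 125 CPM in Control, a rise of 0.40 ± 0.06 (adjusted p = 0.00639). In both genes the gap between the groups was wider than the range of either group.

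Mcm3 stood at 201, 187 and 199 CPM with MCH and at 131, 146 and 157 CPM in Control (0.43 ± 0.08, adjusted p = 0.0158). Mcm2 stood at 131, 118 and 121 CPM against 90.6, 95.7 and 102 (0.36 ± 0.07, adjusted p = 0.0227). In Mcm2 and Mcm3, Control replicate 1 was the lowest and Control replicate 3 the highest of its group. Mcm7, whose locus also hosts the microRNAs Mir25 and Mir93, stood at 161, 180.4 and 176 CPM against 146, 129.9 and 143 (0.31 ± 0.07, adjusted p = 0.0379). Mcm4 did not pass (0.22 ± 0.09, adjusted p = 0.170): its MCH libraries held 58.3, 48.2 and 54.6 CPM and its Control libraries 43.9, 47.0 and 47.7, so that MCH replicate 2 lay just above the highest Control library. The Mcm3 call did not hold without MCH replicate 3 or Control replicate 2 (adjusted p up to 0.0731), nor the Mcm2 call without either of these or Control replicate 1 (up to 0.0801). The Mcm7 call held only without MCH replicate 1 (adjusted p up to 0.142 without another library). Summed over the subunits, the helicase took 816, 801 and 812 CPM with MCH and 598, 605 and 641 in Control, 1.32 times as much on the means.

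**Figure D2:**
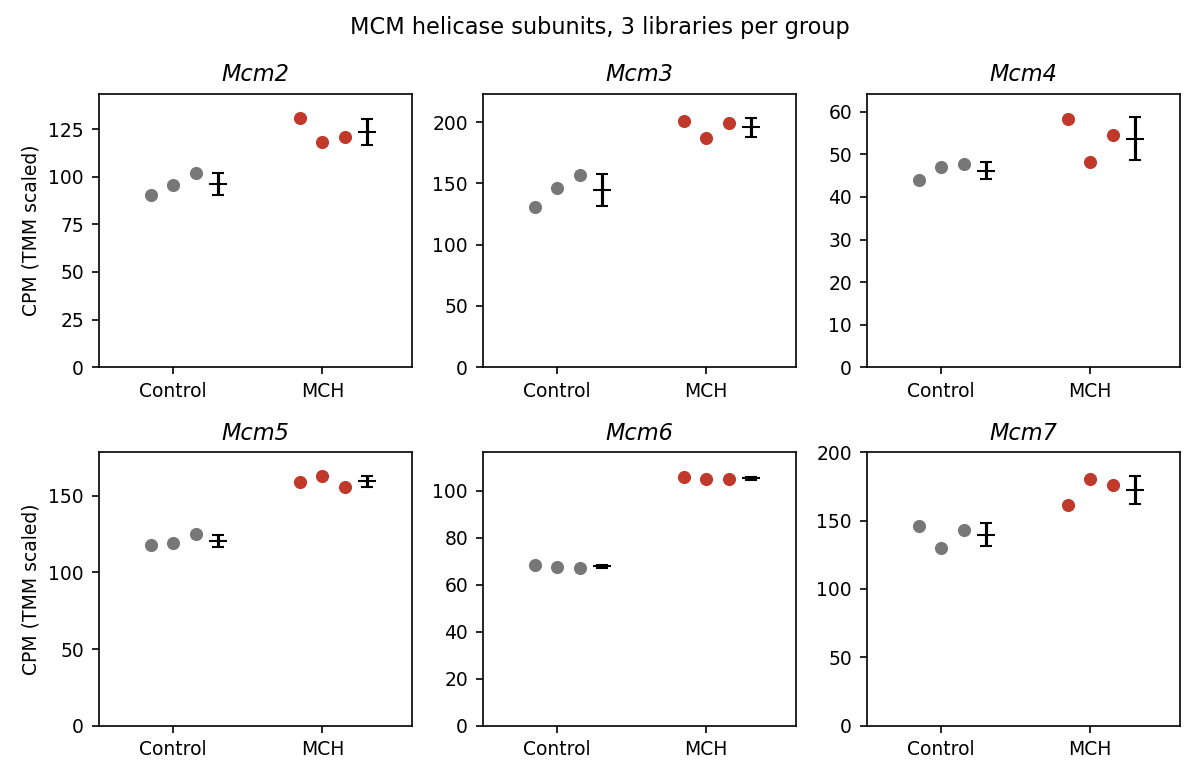
CPM (vertical axes, from 0) of the 6 MCM subunits in each of 3 Control (grey) and 3 MCH (red) libraries, with the mean and SD of each group in black. The groups do not overlap in any panel; they are closest in Mcm4 (48.2 against 47.7 CPM) and tightest in Mcm6.

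Although the 6 proteins form a ring with 1 copy of each, their transcripts differed in level. Per kilobase of the longest protein-coding transcript, a measure chosen after seeing the data, the order with MCH was Mcm3 (64.5 ± 2.48 CPM per kb; SD, n = 3), Mcm7 (58.3 ± 3.38), Mcm5 (47.2 ± 1.02), Mcm2 (36.6 ± 2.02), Mcm6 (24.2 ± 0.119) and Mcm4 (15 ± 1.41). In Control Mcm3 (47.7 ± 4.21) and Mcm7 (47.2 ± 2.91) lay within their spread of each other, and Mcm6 (15.6 ± 0.156) still came before Mcm4 (12.9 ± 0.558). In the deposited FPKM the order was another, with Mcm5 highest (46.4 ± 1.03) and Mcm2 lowest (13.7 ± 1.03, within the spread of Mcm4 at 14.9 ± 1.68). The deposited FPKM imply a fixed length per gene, which for 26 of the 34 members equals, to within 1 base, the sum of all distinct exons of the gene in GENCODE M21, with overlapping exons of different transcripts counted separately. For Mcm2 that length was 8950 bases, against 3371 for its longest coding transcript, and for Fen1 7006 bases, longer than the 5038 bases of its locus. Levels of different genes are therefore given below per kilobase of the longest coding transcript.

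**Figure D3:**
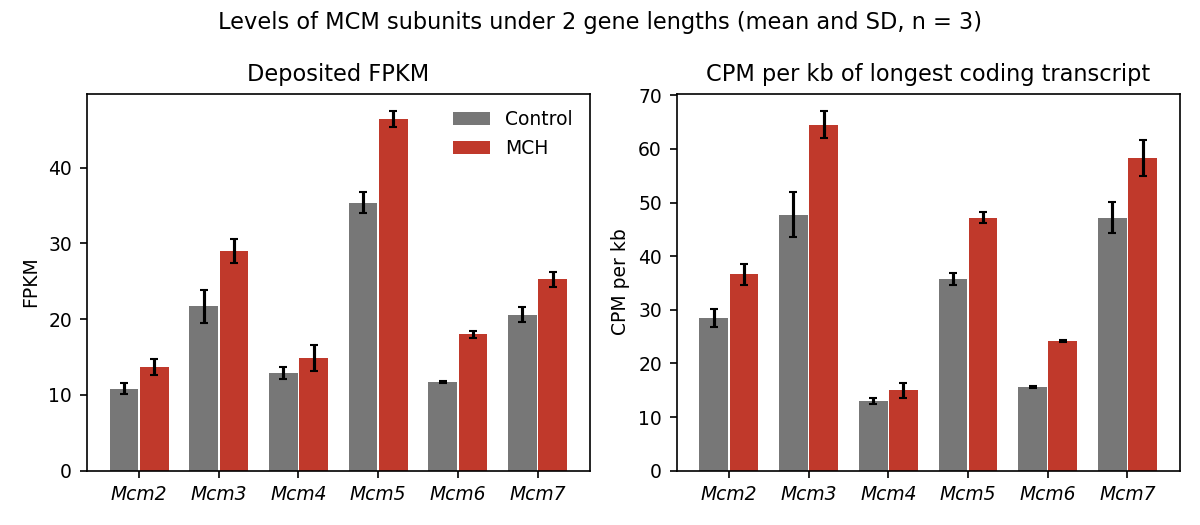
Levels of the 6 MCM subunits with MCH (red) and in Control (grey) as deposited FPKM (left) and as CPM per kilobase of the longest coding transcript (right); bars are means and error bars SDs of 3 libraries. Mcm2 is the lowest subunit on the left (13.7 with MCH) and lies above Mcm6 and Mcm4 on the right (36.6), while MCH lies above Control for all 6 on both scales.

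The sliding clamp and 2 subunits of its loader rose. Pcna (chromosome 2, 132249162 to 132253314, minus strand), the ring that tethers polymerases to DNA, stood at 159, 157 and 149 CPM with MCH and at 120.3, 105 and 114 CPM in Control (0.46 ± 0.07, adjusted p = 0.00891). Every MCH library lay well above the highest Control library. The annotation lists Pcna-ps2, a processed pseudogene on chromosome 19, which took 1067 to 1576 counts per library and also rose (0.42 ± 0.08, adjusted p = 0.0235). Reads of such a copy and of Pcna may not be separable. With the counts of both summed, a setting chosen after seeing the data, the values were 236, 246 and 237 CPM with MCH and 188, 165 and 176 in Control (0.44 ± 0.06, adjusted p = 0.00811).

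The RFC loader opens the clamp with the energy of ATP. Rfc2 (chromosome 5, 134581366 to 134601805, plus strand) stood at 70.5, 84.0 and 56.0 CPM with MCH and at 42.8, 38.3 and 40.7 in Control (0.79 ± 0.14, adjusted p = 0.0181). Its MCH libraries were far more unequal than its Control libraries, but the lowest was still above all of them. The call did not hold without Control replicate 2 or 3 (adjusted p up to 0.0807). Rfc5 rose from 32.0 ± 2.15 to 43.0 ± 1.45 CPM (0.43 ± 0.08, adjusted p = 0.0201; it held without MCH replicate 1 or Control replicate 2 and not without any other library, with adjusted p up to 0.0804). The large subunit gene Rfc1 (0.23 ± 0.07, adjusted p = 0.0788) and Rfc3 (0.15 ± 0.09, adjusted p = 0.300) did not pass. Rfc4, the other small subunit, carries no KEGG term in the table and so is not among the 34; it did not pass either (0.33 ± 0.10, adjusted p = 0.0860). Pcna stood at 102 ± 3.41 CPM per kb with MCH, above the 4 loader genes at 14.0 to 30.8.

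Of the polymerase alpha and primase genes, only the catalytic primase gene Prim1 passed the test. Prim1 stood at 45.1, 50.9 and 48.8 CPM with MCH and at 36.9, 36.9 and 33.7 in Control (0.43 ± 0.08, adjusted p = 0.0208). The groups were separate, but without MCH replicate 2 or 3 or Control replicate 2 or 3 the gene did not pass (adjusted p up to 0.0883). The large primase subunit gene Prim2 changed by nearly as much with a wider error (0.39 ± 0.11, adjusted p = 0.0606). The polymerase alpha genes Pola2 (0.17 ± 0.08, adjusted p = 0.231) and Pola1 (0.15 ± 0.10, adjusted p = 0.361) had smaller differences, and Pola1 overlapped between groups. Whether primase and polymerase alpha genes differ in their change was not tested.

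The leading-strand polymerase epsilon had 2 of its 4 genes called. Pole2, its second subunit, which links it to the helicase, stood at 13.1, 10.9 and 12.6 CPM with MCH and at 7.19, 5.81 and 7.55 in Control. This was the largest rise of the members (0.84 ± 0.15, adjusted p = 0.0158), on 111 to 224 counts per library, and it did not pass without MCH replicate 3 or without Control replicate 2 (adjusted p up to 0.0681). Pole4, a small histone-fold subunit, stood at 79.8, 89.7 and 82.8 CPM against 63.0, 53.8 and 56.8 (0.54 ± 0.08, adjusted p = 0.0104). The catalytic subunit gene Pole (0.30 ± 0.08, adjusted p = 0.0513) and Pole3, the histone-fold partner of Pole4 (0.25 ± 0.09, adjusted p = 0.122), did not pass, with groups that did not overlap. The histone-fold subunits stood at 57.0 ± 6.23 (Pole3) and 47.5 ± 2.86 CPM per kb (Pole4) with MCH, above Pole2 (7.17 ± 0.694) and Pole (6.04 ± 0.378).

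In the lagging-strand polymerase delta, the catalytic subunit gene Pold1 was the 1 member past the threshold. It stood at 63.8, 71.9 and 62.4 CPM with MCH and at 50.7, 45.6 and 53.6 in Control (0.40 ± 0.09, adjusted p = 0.0352; among the fits with a library left out it passed only without MCH replicate 1, with adjusted p up to 0.108). Pold2 (0.32 ± 0.08, adjusted p = 0.0514) and Pold3 (0.26 ± 0.08, adjusted p = 0.0774) were higher in every MCH library without passing. Pold4, the smallest subunit, overlapped between groups (95.4, 127 and 122 CPM against 119, 112 and 100.2; 0.06 ± 0.12, adjusted p = 0.800). It was by far the most abundant of the 4 per kilobase, at 126 ± 18.5 CPM per kb with MCH against 41.8 ± 2.88 for Pold2, 19.1 ± 1.48 for Pold1 and 9.67 ± 0.355 for Pold3.

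None of the 4 single-strand binding genes passed the test. Rpa2, the RPA subunit that is phosphorylated in S phase and after damage, had the smallest p: 40.3, 46.5 and 37.9 CPM with MCH and 35.3, 26.6 and 32.8 in Control (0.40 ± 0.13, adjusted p = 0.0930). Its groups did not overlap, but both were wide. Rpa1, the main DNA-binding subunit, overlapped (0.24 ± 0.13, adjusted p = 0.289), with MCH replicate 1 highest at 83.9 CPM and Control replicate 1 lowest at 53.2. Rpa3 (0.12 ± 0.15, adjusted p = 0.666) and Ssbp1, which encodes the mitochondrial single-strand binding protein (0.09 ± 0.06, adjusted p = 0.402), overlapped too.

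Of the 7 primer removal and ligation genes, 2 rose. Lig1 (chromosome 7, 13277283 to 13311433, plus strand), the ligase that joins lagging-strand fragments, stood at 73.7, 75 and 73.3 CPM with MCH and at 52.6, 52.7 and 57.3 in Control (0.45 ± 0.07, adjusted p = 0.00920). Rnaseh2c, a structural subunit of RNase H2, rose from 37.0 ± 1.93 to 51.0 ± 2.19 CPM (0.46 ± 0.08, adjusted p = 0.0136), a call that did not hold without MCH replicate 2 or 3 or Control replicate 2 (adjusted p up to 0.0681). The other 2 subunit genes, Rnaseh2b (0.42 ± 0.11, adjusted p = 0.0599) and the catalytic Rnaseh2a (0.30 ± 0.08, adjusted p = 0.0571), stood higher in every MCH library without passing. Rnaseh1, the single-subunit RNase H, was the 1 member with every MCH library below Control, at 12.3, 13.8 and 12.4 against 15.1, 14.6 and 14.3 CPM, and it did not pass (-0.20 ± 0.10, adjusted p = 0.256). Dna2 overlapped between groups (0.26 ± 0.20, adjusted p = 0.441).

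Fen1, the flap endonuclease, stood apart from the other members in its spread. Its MCH libraries held 15.7, 20.3 and 47.4 CPM (268, 359 and 817 counts), and its Control libraries 36.8, 32.9 and 34.7 CPM. MCH replicates 1 and 2 were thus below and MCH replicate 3 above all Control libraries, and the change did not pass (-0.32 ± 0.45, adjusted p = 0.703). Without MCH replicate 3 it became a called fall (-0.95, adjusted p = 0.0205). Exons of Tmem258 and Gm10143, on the opposite strand, overlap those of Fen1 (chromosome 19, 10199132 to 10204169, minus strand). The overlaps with the 2 genes sum to 84.2% of the exon bases of Fen1, with a base shared with both counted for each. Without a stated strand setting, reads of Fen1 and of these genes cannot be told apart there. Tmem258 stood at 118, 149 and 136 CPM with MCH and at 149, 116 and 127 in Control, and Gm10143 had 0 to 8 counts. The lowest and the highest MCH library of Fen1 were the lowest and the middle one of Tmem258.

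**Figure D4:**
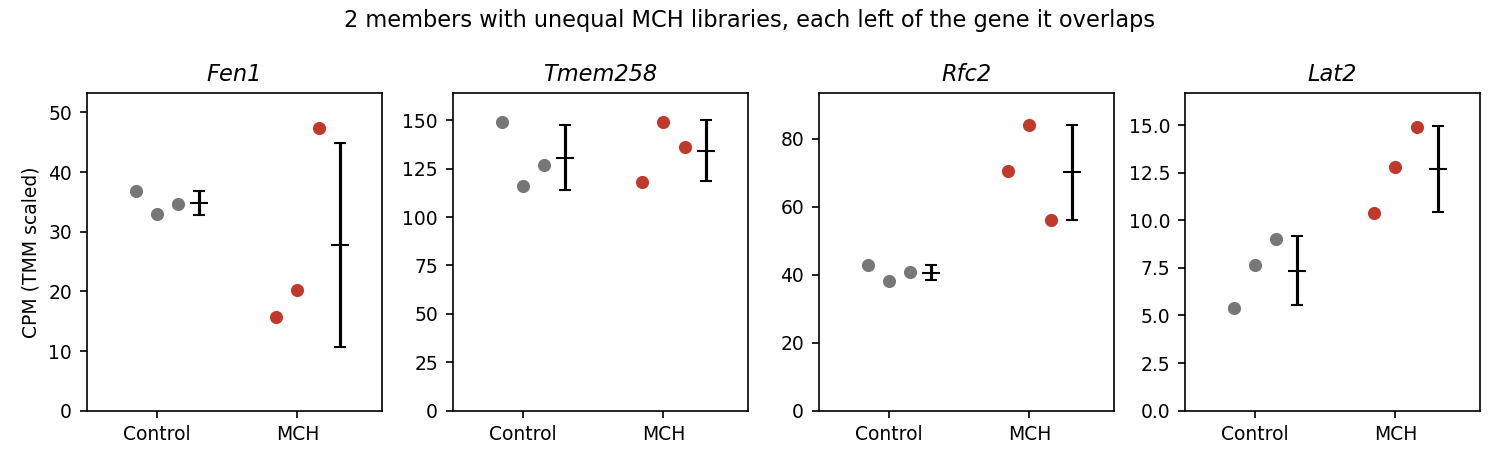
CPM (vertical axes, from 0) of Fen1 and Rfc2 in each of 3 Control (grey) and 3 MCH (red) libraries, each beside a gene on the opposite strand that shares exon bases with it, with the mean and SD in black. The MCH libraries of Fen1 run from 15.7 to 47.4 CPM while Tmem258 runs from 118 to 149, and those of Rfc2 run from 56.0 to 84.0 CPM while Lat2 runs from 10.4 to 14.9.

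Exon overlap touched 12 of the 34 members in the annotation, and 22 had none. Of the 14 genes that rose, 8 had none. For the other called members the counted genes on the opposite strand did not pass: Zswim9 beside Lig1 (-0.25 ± 0.11, adjusted p = 0.182), Cops6 and Ap4m1 beside Mcm7 (0.18 ± 0.07, adjusted p = 0.156, and -0.12 ± 0.11, adjusted p = 0.547), Wsb2 beside Rfc5 (0.05 ± 0.08, adjusted p = 0.707), Kat5 beside Rnaseh2c (-0.05 ± 0.07, adjusted p = 0.690) and Lat2 beside Rfc2 (0.79 ± 0.21, adjusted p = 0.0602). Lat2 shares 15.1% of the exon bases of Rfc2 and stood at 7.35 ± 1.81 CPM in Control and 12.7 ± 2.26 with MCH. Pole2 overlaps a same-strand gene model, Gm49384, that was not analysed here. The 34 genes lie on 14 chromosomes. By the KEGG terms in the table, 17 of them also belong to nucleotide excision repair, 14 to mismatch repair, 11 to base excision repair, 8 to homologous recombination and 7 to the cell cycle.

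Genes that prepare replication rose in part. Of 23 origin licensing and firing genes, 8 rose and none fell, with a median of 0.31. Over all genes tested, 3.64% rose and 5.4% fell. The log2 fold change was above 0 in 22 of the 23, against 50.3% of all genes tested, and below 0 in 1, Cdt1. Every MCH library of Cdt1 lay below Control, as in 16.6% of genes tested, and it did not pass (-0.15 ± 0.06, adjusted p = 0.167). Gmnn, the inhibitor of licensing, rose by 0.49 ± 0.08 (adjusted p = 0.0126), the origin recognition subunit gene Orc6 by 0.35 ± 0.07 (adjusted p = 0.0291), and Gins1, a subunit of the GINS part of the active helicase, by 0.72 ± 0.16 (adjusted p = 0.0306). The Gmnn call did not hold when Control replicate 2, Control replicate 3 or MCH replicate 3 was left out (adjusted p up to 0.0555), nor the Gins1 call without any of these or MCH replicate 2 (up to 0.114), and the Orc6 call held only without MCH replicate 1 (up to 0.104 otherwise). Of 11 genes of nucleotide supply and S-phase topoisomerases, 8 rose and none fell, with a median of 0.45. Tk1, the thymidine kinase, rose from 33.1 ± 3.67 to 57.5 ± 4.82 CPM (0.80 ± 0.11, adjusted p = 0.00556), and Rrm2 by 0.60 ± 0.06 and Top2a by 0.45 ± 0.06 were also called in all 6 such fits.

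Of 18 genes of fork protection, alternative clamp loaders and chromatin assembly, 2 rose (3.64% of all genes tested rose), with a median of 0.22. These were the histone chaperone gene Asf1b (0.66 ± 0.08, adjusted p = 0.00317) and the chromatin assembly factor gene Chaf1b (0.39 ± 0.09, adjusted p = 0.0352; it passed only without MCH replicate 1 among the fits with a library left out, with adjusted p up to 0.125), and Mcm8 had the next smallest p (0.38 ± 0.11, adjusted p = 0.0786). Of 18 mitosis genes, 5 rose, with a median of 0.23: Birc5 by 0.62 ± 0.09, Cdk1 by 0.73 ± 0.11, Kif11 by 0.36 ± 0.07, and Ccnb1 and Ccnb2. The other 13 did not pass. The log2 fold change was above 0 in all 18 mitosis genes, against 50.3% of all genes tested. Every MCH library stood above every Control library in 16 of them, against 16.1% of genes tested. The 2 that overlapped between groups were Mki67 (0.08 ± 0.07, adjusted p = 0.503) and Bub1b (0.10 ± 0.08, adjusted p = 0.439). Birc5 and Cdk1 passed with each library left out, Kif11 and Ccnb1 only without MCH replicate 1 (adjusted p up to 0.0949 and 0.141), and Ccnb2 in none of these fits (up to 0.144).

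None of 12 repair and translesion polymerase genes passed (median 0.01; 1 had an unadjusted p under 0.05), nor did any of 9 mitochondrial DNA replication genes (median 0.05; 1 had an unadjusted p under 0.05). Those with the smallest p were Rev3l (-0.75 ± 0.22, adjusted p = 0.0908) and the mitochondrial transcription and packaging factor gene Tfam (0.24 ± 0.07, adjusted p = 0.0770). Over all 13662 genes tested, 3.64% rose, 5.4% fell and 3657 had an unadjusted p under 0.05. At such shares, lists as short as these can hold no gene that passes. Among 13 E2F and RB family genes, the pocket protein gene Rbl1 rose by 0.57 ± 0.14 (adjusted p = 0.0450; it passed in none of the 6 fits with a library left out, with adjusted p up to 0.136). Its relative Rbl2, which acts mainly in resting cells, fell by 0.37 ± 0.09 (adjusted p = 0.0418; it passed only without MCH replicate 1, with adjusted p up to 0.147 otherwise). E2f1, named here after its value was seen, stood at 51.0 ± 3.3 CPM in Control and 54.7 ± 4.28 with MCH (0.10 ± 0.09, adjusted p = 0.510). No difference between these lists and the 34 members was tested.

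**Figure D5:**
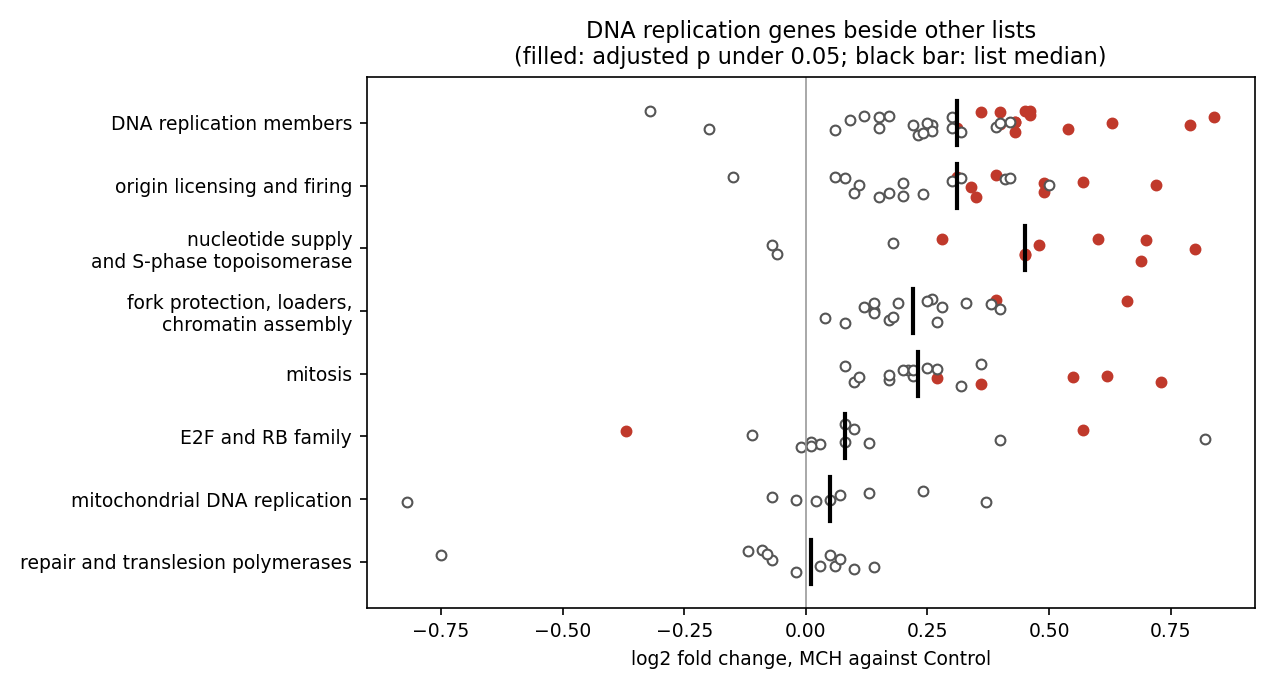
Log2 fold change (horizontal axis, MCH against Control) of the DNA replication genes and of 7 other lists; each point is a gene, filled where the adjusted p was under 0.05, and black bars are list medians. Medians run from 0.45 for nucleotide supply and 0.31 for the DNA replication genes to 0.05 and 0.01 for mitochondrial replication and repair polymerases.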

How the data were processed

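Polyadenylated RNA of 6 samples was sequenced (per the labels' protocols, with the VAHTS Universal V6 kit). For each gene the authors deposited raw read counts and FPKM, with group means of FPKM and p-values and q-values of their own comparison, per the file headers. Per the submitters' processing notes the genome was mm10 (GRCm38). Not given in the sources used here are the aligner, counter, annotation release, strand setting and test. MCH columns carry MCH in their names; the other 3 were taken as Control because the series has no other group, and every direction rests on this. Genes marked UP in the authors' table are higher in those 3 columns.

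Counts were tested with edgeR 4.0.16 (R 4.3.3): TMM scaling, filterByExpr (minimum count 10, minimum total 15), a robust quasi-likelihood fit on group, two-sided, Benjamini-Hochberg adjustment over 13662 genes at 0.05. Each SE came from the unshrunken log2 coefficient and the F statistic (coefficient over root F). Gene models came from GENCODE M21 (99.5% of IDs matched). Replicates differed beyond counting noise (chi-square over its degrees of freedom was 14.9 to 25.3). Alternatives were other scalings, filters, DESeq2 1.42.0, limma 3.58.1 (voom; log2(FPKM + 1) and + 0.1), a length and GC correction, a replicate block and each library left out. The steps were tested on data simulated from the fitted model. The smallest change planted there was larger than the change of most members, so recovery of such small changes was not tested. Members and lists were chosen with earlier results of these data known. The rule named all called members, the member of each complex with the smallest p, and up to 3 genes per other list. The remaining members, Cdt1, Ccnb1, Ccnb2, Mki67, Bub1b, E2f1, the neighbouring genes and the single markers were named after their values were seen.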

Additional observations from a re-analysis of the deposited data

How the results depend on the processing

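The count of DNA replication genes that rose stayed between 14 and 20 under RLE, upper-quartile and library-total scaling, both other count filters, the non-robust fit, DESeq2, limma-voom, limma on log2(FPKM + 1) or + 0.1, and removal of the trend with length and GC, and each of these called all 14 genes of the report. The share of all genes tested that rose also moved, from 2.7% without the filter on low counts to 7.4% with the length and GC trend removed. In that last fit 20 of the 34 members rose, and their median log2 fold change was 0.39. Of all genes 1008 rose and 694 fell there, in place of 497 and 738. DESeq2 called 18 members higher and 800 of all genes (6.17%). Deviations from the group means correlated at -0.161, -0.039 and -0.014 between libraries of the same replicate number. No library correlated best with the library of its own number. With 3 libraries per group, these values cannot show whether libraries of the same number shared a batch. With the replicate number as a block, 28 of all genes rose and 151 fell, and 1 member, Mcm6, stayed past the threshold. With the block and the length and GC correction together these were 64 (0.47% of all genes tested), 165 and 4, and the members' median was 0.39. For Pold4 the range with a library left out was -0.02 to 0.17. Leaving out 1 library gave 6 to 18 members higher and 0 to 1 lower, a median of 0.29 to 0.36, and 65 to 722 of all genes higher and 256 to 867 lower; fewer samples were fitted there. Signs changed for 2 members that did not pass: Pold4 (0.06 with all libraries, -0.02 without MCH replicate 2, -0.01 without Control replicate 3) and Rpa3 (-0.11 with the length and GC trend removed, -0.12 with the block added); the cause was not tested. Counts limit Dna2 and Pole2 most.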
